A study of Mus musculus with 8 samples.

Results

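The mitotic kinesins described here are 10 genes chosen by symbol, Kif11, Kif15, Kif18a, Kif18b, Kif20a, Kif20b, Kif22, Kif23, Kif2c and Kif4, out of 23337 genes in the deposited table of raw counts. RNA sequencing was run on bone marrow of C57BL/6 mice, 4 months of age, every one of them carrying JAK2V617F on 1 allele. The first cell population, erythroblasts, was purified by the red cell marker TER119 and consists of red cell precursors; the second was Kit-positive cells of the lineage-negative fraction, called progenitors here. Each population came with the genotype labels JAK2V617F/+ Plek2+/+ and JAK2V617F/+ Plek2-/-, which gives 4 groups of 2 libraries, and Plek2 encodes pleckstrin-2, a membrane-binding protein of erythroblasts that acts downstream of JAK2. No group lacked JAK2V617F, and how the alleles were made is not given in the sources used here.

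Kinesins are motor proteins that use ATP to move along microtubules or to take their ends apart. The mitotic ones build the spindle, move the chromosomes and organise the midzone where the cell is cut in 2, and the mRNA of most of them is abundant only in G2 and M. Erythroblasts divide several times while they fill with hemoglobin, and their last step, the loss of the nucleus, uses parts of the same cytokinesis machinery. In humans, a variant of KIF23 underlies congenital dyserythropoietic anemia type III, in which erythroblasts fail in cytokinesis and become multinucleate.

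Total counts ran from 16038035 to 23521726 per library. CPM here means reads per 1000000, on library totals scaled by the TMM method. The summed levels of marker lists are the exception and use unscaled library totals throughout. Erythroblast markers summed to between 83820 and 98410 CPM in erythroblasts and to between 1588 and 1816 CPM in progenitors. Stem and progenitor markers summed to 696 to 740 CPM in erythroblasts and 1695 to 1914 CPM in progenitors, so both cell labels matched their markers. The genotype label was less clear. Plek2 was at 1770 and 1894 reads in Plek2+/+ erythroblasts and 616 and 781 in those labelled Plek2-/-, but at 29 and 21 reads in Plek2+/+ progenitors and 130 and 173 in those labelled Plek2-/-. In progenitors Plek2 therefore went against the label (log2 fold change 2.47, edgeR adjusted p = 0.00253), and "labelled Plek2-/-" names the label only. Whether the progenitor labels were exchanged cannot be told from the files. An exchange would turn the sign of each progenitor genotype value and change each interaction value. It would also change each comparison of erythroblasts with progenitors within a label. The female-specific RNA Xist was at 1861 to 4039 CPM of the library total in the Plek2+/+ libraries and at 2.58 to 2.94 CPM in those labelled Plek2-/-, so sex and genotype label cannot be told apart. No label says that replicate libraries stem from separate animals, so every p-value here measures the spread between libraries, which may be technical.

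Promoters of G2 and M genes often carry the letters TTTGAA (the cell cycle homology region, bound by the MuvB complex together with B-Myb or Foxm1), CCAAT boxes bound by NF-Y, or E2F sites. RefSeq's promoter table (GRCm38.p6; 250 bases before to 50 after each start) held 9 of the 10 kinesins, all but Kif20a. TTTGAA, read on both strands, was in 8 of these 9 promoters, against 17.9% of all 32851 promoters. Between bases -70 and 30 around the start it was in 7 of 9, against 5.11% of all promoters. CCAAT on either strand was in 5 of 9 (37.4% of all). The E2F letters TTTGGCGC or TTTCGCGC on either strand were in 2 of 9, Kif18a and Kif15 (0.813% of all). Between bases -70 and 30, CCAAT was in 5 of 9 (16.1% of all) and the E2F letters in 2 of 9 (0.289% of all). No match of 1 motif shared bases with a match of another in these promoters. The 5 windows below run from base -70 to base 30 and are shown because these genes span the range of the results: Kif18a had the highest and Kif20b the lowest ratio between the populations, and Kif11 the highest level per length. Capitals mark TTTGAA, or TTCAAA where the other strand reads TTTGAA.
Kif18a (chr2:109280668-109280767, plus strand): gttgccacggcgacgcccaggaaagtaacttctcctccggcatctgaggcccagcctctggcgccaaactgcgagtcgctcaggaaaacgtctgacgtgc
Kif18b (chr11:102925095-102925194, minus strand): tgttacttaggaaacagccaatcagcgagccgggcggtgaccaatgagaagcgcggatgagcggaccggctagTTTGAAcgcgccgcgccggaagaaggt
Kif4 (chrX:100625995-100626094, plus strand): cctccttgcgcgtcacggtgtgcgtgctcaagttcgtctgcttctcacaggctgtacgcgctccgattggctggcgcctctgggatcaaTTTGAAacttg
Kif11 (chr19:37376312-37376411, plus strand): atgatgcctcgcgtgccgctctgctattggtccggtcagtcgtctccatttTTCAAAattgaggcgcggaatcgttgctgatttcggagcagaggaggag
Kif20b (chr19:34922288-34922387, plus strand): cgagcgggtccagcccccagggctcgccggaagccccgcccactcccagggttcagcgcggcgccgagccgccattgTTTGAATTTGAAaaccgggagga

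The Kif20b window held TTTGAA at bases 8 to 13 and again at 14 to 19, end to end. The Kif18a window held none, and its E2F letters lay on the other strand at bases -10 to -3. Kif2c had TTTGAA only farther upstream, at -103 to -98, and its RefSeq start lies inside the longer GENCODE gene model. The RefSeq starts of Kif4, Kif22 and Kif15 lie inside their GENCODE models as well. Which matches count as near the start therefore depends on the model. A match of letters is a description of the sequence and not a binding site, and no binding was measured.

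The comparison of erythroblasts with progenitors asks how kinesin mRNA differs between maturing red cells and the stem and progenitor cells of the same marrow. All 10 kinesins were higher in erythroblasts, under both genotype labels, by 1.77-fold to 6.62-fold. Kif18a, which damps chromosome movements at the metaphase plate, differed most, and Kif20b, which acts late in cytokinesis, differed least. The edgeR quasi-likelihood test called 10 of 10 members higher in erythroblasts in the Plek2+/+ libraries and 10 of 10 in those labelled Plek2-/-. Of 13365 tested genes, 36.0% were called higher and 37.8% lower in the Plek2+/+ libraries (73.8% in all), and 37.5% higher and 39.2% lower in those labelled Plek2-/- (76.7% in all). With library totals in place of TMM scaling the split was 15.8% higher and 68.6% lower, and 17.3% higher and 67.0% lower. All 4 erythroblast libraries lay above all 4 progenitor libraries for each of the 10, which held for 36.7% of all tested genes. In these bulk samples fewer cells of a type (here, fewer cells in G2 and M) and less RNA per cell cannot be told apart.

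The spindle pole motors come first. Kif11 (chr19:37376403-37421859, plus strand, GENCODE vM21 on GRCm38, as for all gene positions here) forms tetramers that slide antiparallel microtubules and push the poles apart. It was at 312 and 327 CPM in Plek2+/+ progenitors, 318 and 320.2 CPM in progenitors labelled Plek2-/-, 1133 and 1392 CPM in Plek2+/+ erythroblasts, and 1138 and 1286 CPM in erythroblasts labelled Plek2-/-. The lowest erythroblast library was therefore far above the highest progenitor library. The log2 fold change was 1.98 in the Plek2+/+ libraries (SE 0.11, 3.95-fold, edgeR adjusted p = 2.93e-09) and 1.93 in those labelled Plek2-/- (SE 0.11, 3.80-fold, edgeR adjusted p = 3.56e-09). Kif15 (chr9:122951046-123018733, plus strand) helps to hold the poles apart once the spindle has formed. Its levels were 193 and 199 CPM in Plek2+/+ progenitors, 193 and 188 CPM in progenitors labelled Plek2-/-, 394 and 452 CPM in Plek2+/+ erythroblasts, and 431 and 475 CPM in erythroblasts labelled Plek2-/-. The populations did not overlap, but the step was smaller than for Kif11: log2 1.11 (SE 0.09, 2.16-fold, edgeR adjusted p = 1.11e-07) and 1.25 (SE 0.09, 2.38-fold, edgeR adjusted p = 2.99e-08).

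The motors that shorten microtubules or limit their growth showed both large and small steps. Kif18a (chr2:109280738-109341747, plus strand) is a kinesin-8 motor that gathers at the plus ends of kinetochore microtubules. It was at 48.5 and 51.2 CPM in Plek2+/+ progenitors, 53.9 and 50.5 CPM in progenitors labelled Plek2-/-, 292 and 360 CPM in Plek2+/+ erythroblasts, and 326 and 365 CPM in erythroblasts labelled Plek2-/-. The libraries of a population lay close together beside the distance between the populations. Its log2 fold changes were 2.71 (SE 0.11, 6.53-fold, 95% interval 5.56-fold to 7.67-fold, edgeR adjusted p = 1.03e-10) and 2.73 (SE 0.11, 6.62-fold, 95% interval 5.64-fold to 7.77-fold, edgeR adjusted p = 9.00e-11). Kif18b (chr11:102905529-102925124, minus strand), the other kinesin-8 of this set, limits astral microtubules. It was at 44.2 and 44.1 CPM in Plek2+/+ progenitors, 42.9 and 44.1 CPM in progenitors labelled Plek2-/-, 196 and 219.7 CPM in Plek2+/+ erythroblasts, and 175 and 212 CPM in erythroblasts labelled Plek2-/-. Its progenitor values were almost level, and its folds were 4.70 in the Plek2+/+ libraries and 4.45 in those labelled Plek2-/- (edgeR adjusted p = 3.28e-10 and 4.39e-10). Kif2c (chr4:117159639-117182639, minus strand) does not walk but takes microtubule ends apart and corrects wrong attachments at centromeres. Its values were 48.9 and 49.6 CPM in Plek2+/+ progenitors, 48.6 and 49.6 CPM in progenitors labelled Plek2-/-, 124 and 137 CPM in Plek2+/+ erythroblasts, and 114 and 134 CPM in erythroblasts labelled Plek2-/-. Its 4 progenitor values lay within 1 CPM of each other, and its folds were 2.65 and 2.52 (edgeR adjusted p = 1.74e-08 and 2.54e-08).

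**Figure D1:**
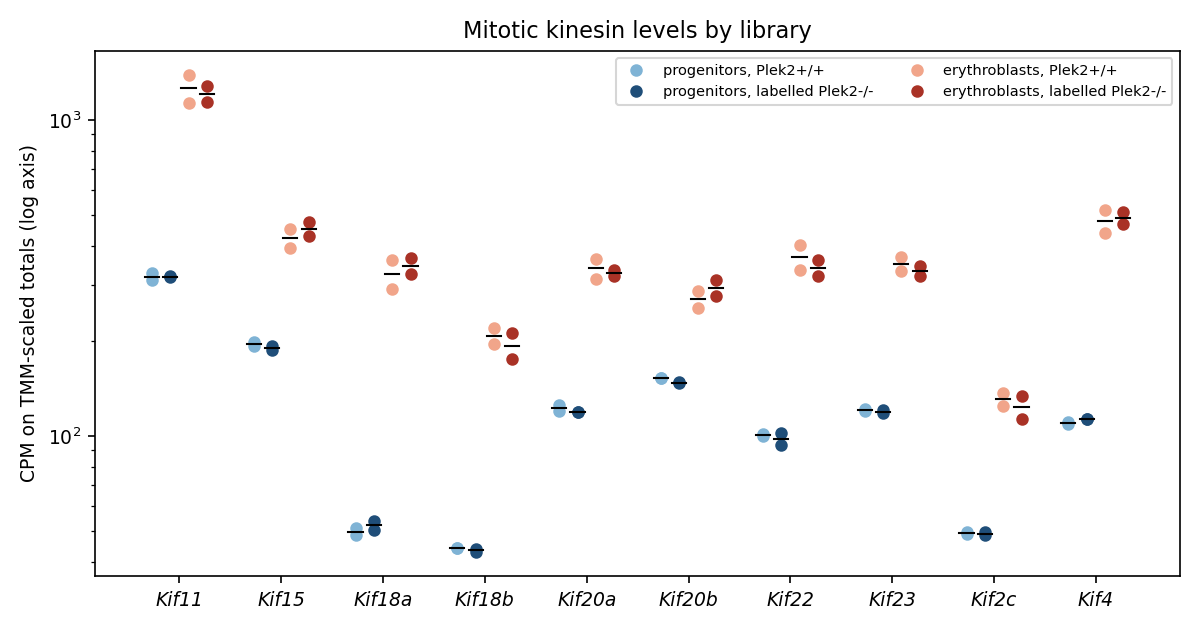
Level of each of the 10 mitotic kinesins in each of the 8 libraries, in CPM on TMM-scaled totals on a log axis; points are libraries and short lines are group means (n = 2). Every erythroblast point of a gene sits above all of its progenitor points, and points of different genes are not comparable, since transcript lengths differ.

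The chromokinesins, which bind chromosomes and push their arms toward the equator, both rose more than 3-fold. Kif4 (chrX:100625737-100727214, plus strand) also limits the length of midzone microtubules together with Prc1. It was at 109 and 111 CPM in Plek2+/+ progenitors, 113 and 113 CPM in progenitors labelled Plek2-/-, 438 and 519 CPM in Plek2+/+ erythroblasts, and 468 and 513 CPM in erythroblasts labelled Plek2-/-. Its log2 fold changes were 2.12 (SE 0.09, 4.36-fold, edgeR adjusted p = 3.20e-10) and 2.11 (SE 0.09, 4.33-fold, edgeR adjusted p = 3.17e-10). Kif22 (chr7:127027729-127042471, minus strand), which drives the polar ejection force, was at 102 and 99.8 CPM in Plek2+/+ progenitors, 102 and 93.4 CPM in progenitors labelled Plek2-/-, 336 and 401 CPM in Plek2+/+ erythroblasts, and 322 and 361 CPM in erythroblasts labelled Plek2-/-. Its folds were 3.66 and 3.50 (edgeR adjusted p = 1.87e-09 and 2.44e-09). The strand setting of the counting is not given in the sources used here, and Kif4 shares 832 of its 5514 exon bases with Pdzd11 on the opposite strand. If the counting did not use strand, reads from those bases cannot be assigned to either gene. Pdzd11 was at 17.39 to 17.97 CPM in progenitors and 51.5 to 60.4 CPM in erythroblasts. The pseudogene Kif4-ps held 5 to 16 reads per library.

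Of the members that act at the midzone and in cytokinesis, Kif23, Kif20a and Kif20b rose by less than 3-fold each, unlike Kif4. Kif23 (chr9:61915905-61946774, minus strand) is the motor of centralspindlin, which bundles midzone microtubules. It was at 122 and 120.3 CPM in Plek2+/+ progenitors, 121 and 118 CPM in progenitors labelled Plek2-/-, 332 and 368 CPM in Plek2+/+ erythroblasts, and 319.9 and 345 CPM in erythroblasts labelled Plek2-/-. The folds of this disease-linked gene were 2.89 and 2.79 (edgeR adjusted p = 1.85e-09 and 2.41e-09). Kif20a brings the kinase Aurora B to the midzone. Its levels were 120.0 and 126 CPM in Plek2+/+ progenitors, 119 and 119 CPM in progenitors labelled Plek2-/-, 315 and 363 CPM in Plek2+/+ erythroblasts, and 322 and 334 CPM in erythroblasts labelled Plek2-/-. Its folds were 2.76 under either label (edgeR adjusted p = 4.48e-09 and 4.20e-09). Kif20a shares 1271 of its 4338 exon bases with Cdc23 on the opposite strand, and Cdc23 was at 69.7 to 77.2 CPM in progenitors and 110.5 to 125 CPM in erythroblasts. Kif20b (chr19:34922361-34975745, plus strand) acts at the midbody late in cytokinesis. It was at 153 and 153 CPM in Plek2+/+ progenitors, 147 and 148 CPM in progenitors labelled Plek2-/-, 254 and 289 CPM in Plek2+/+ erythroblasts, and 277 and 311 CPM in erythroblasts labelled Plek2-/-. Its log2 fold changes were 0.83 (SE 0.09, 1.77-fold, 95% interval 1.56-fold to 2.02-fold, edgeR adjusted p = 1.59e-06) and 0.99 (SE 0.09, 1.99-fold, 95% interval 1.75-fold to 2.27-fold, edgeR adjusted p = 2.28e-07). These intervals lie wholly below those of Kif18a.

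The size of these steps rests on how the libraries are scaled. TMM factors were 0.738 to 0.772 in erythroblasts and 1.30 to 1.33 in progenitors. With TMM the median log2 fold change of the members was 1.70 in the Plek2+/+ libraries and 1.64 in those labelled Plek2-/-, and that of all tested genes was -0.06 and -0.07. With library totals alone the median of all genes moved by -0.81 and -0.79, to -0.87 and -0.86, and that of the members to 0.88 and 0.85. On that scale Kif20b was at log2 0.01 in the Plek2+/+ libraries (edgeR adjusted p = 0.904), and so no longer called, and at 0.21 in those labelled Plek2-/- (edgeR adjusted p = 0.0250). The other 9 members stayed called higher on that scale under both labels, as did Kif20b in the libraries labelled Plek2-/-. As a share of all counted reads, the 10 members together took 1615 to 1699 of every 1000000 reads in progenitors and 2942 to 3319 in erythroblasts, which do not overlap.

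**Figure D2:**
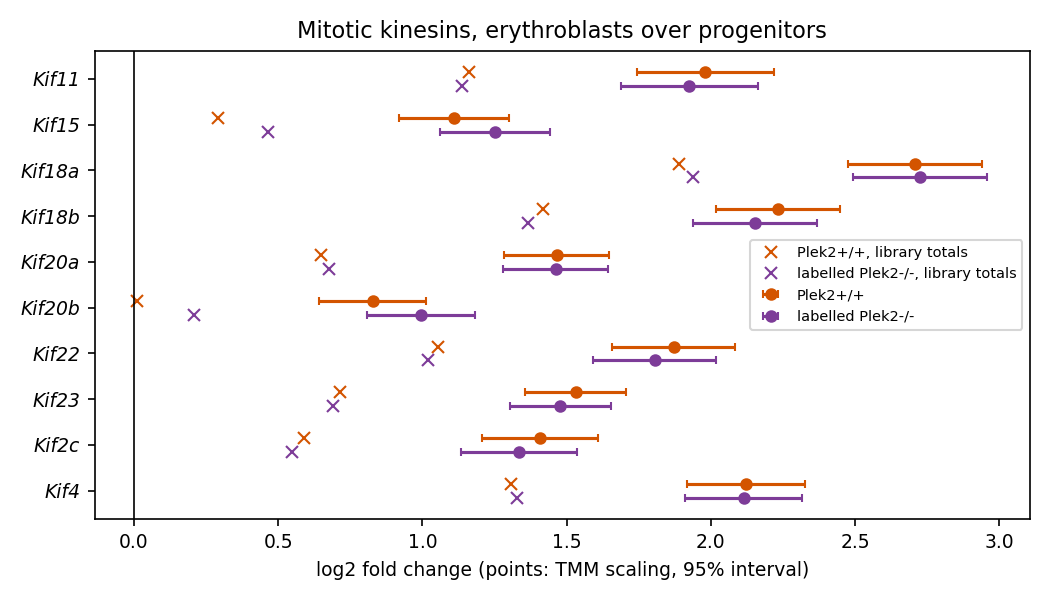
Log2 fold change of each kinesin, erythroblasts over progenitors, for the Plek2+/+ libraries and those labelled Plek2-/-; points with bars are edgeR estimates with TMM scaling and 95% intervals, and crosses are estimates with library totals alone. The crosses sit about 0.8 to the left of the points for every gene, with Kif18a farthest right and Kif20b farthest left on either scale.

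A share of the pooled kinesin reads does not depend on that scaling, and it shows that the mix of motors differed between the populations. Kif11 took 29.9% ± 0.725 of the reads of the 10 kinesins in erythroblasts and 25.4% ± 0.359 in progenitors (SD, n = 4 libraries each). Kif18a took 8.11% ± 0.357 against 4.05% ± 0.171, Kif4 11.7% ± 0.246 against 8.87% ± 0.223, Kif18b 4.85% ± 0.265 against 3.48% ± 0.0656 and Kif22 8.58% ± 0.330 against 7.88% ± 0.292 (SD, n = 4 each). These 5 held larger shares in erythroblasts. The other 5 held smaller shares there. Kif20b took 6.84% ± 0.366 in erythroblasts and 11.9% ± 0.207 in progenitors, and Kif15 10.6% ± 0.498 against 15.3% ± 0.192 (SD, n = 4 each). Kif20a took 8.08% ± 0.260 against 9.61% ± 0.146, Kif23 8.27% ± 0.313 against 9.56% ± 0.137 and Kif2c 3.08% ± 0.140 against 3.91% ± 0.0547 (SD, n = 4 each).

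For each of the 10 the shares of the 4 erythroblast and the 4 progenitor libraries did not overlap, which gives a two-sided exact permutation p = 0.0286, the smallest that 4 against 4 libraries allow (0.0286 after adjustment over the 10). The shares add up to 100%, so these tests are not independent of each other, and this test was chosen after the levels had been seen. The shares were separate within the Plek2+/+ libraries and within those labelled Plek2-/- as well, with differences of the same sign. The reads of Kif18a per read of Kif20b show the shift in a single figure: 0.318, 0.335, 0.366 and 0.341 in the progenitor libraries and 1.15, 1.24, 1.18 and 1.17 in the erythroblast libraries. This pair was picked as the extremes of the range, so the ratio is a description.

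**Figure D3:**
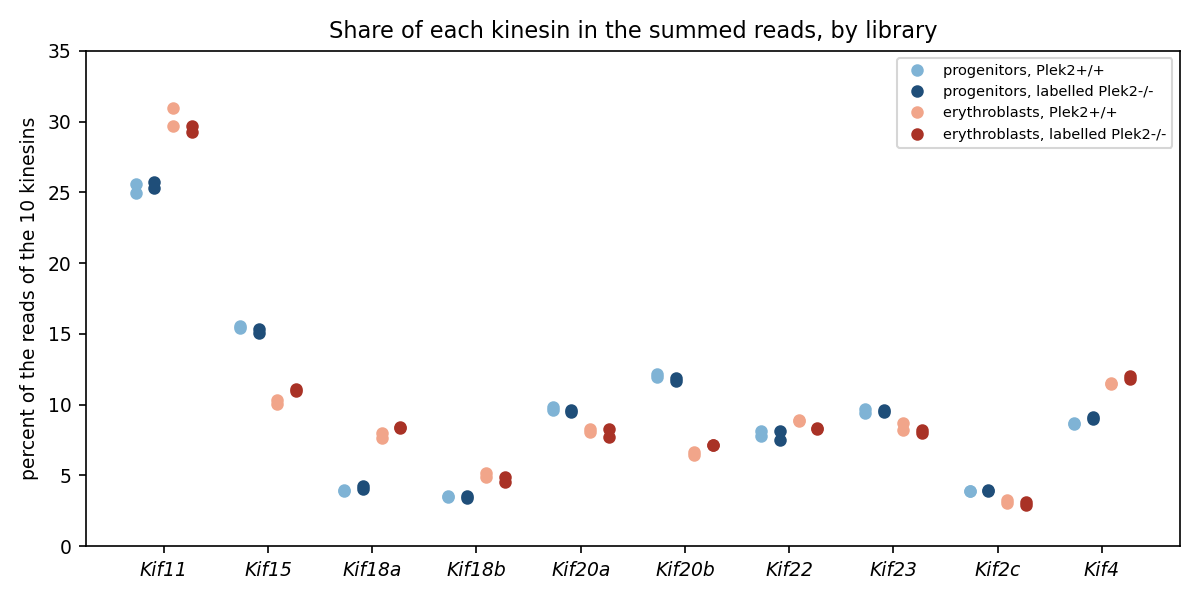
Share of each kinesin in the summed reads of the 10 kinesins, in percent, by library and group. Kif11, Kif18a, Kif18b, Kif22 and Kif4 sit higher in erythroblasts and the other 5 lower, with no overlap between the populations.

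Levels can be set between genes only per length, here as CPM per kilobase of exon. That length joins the exons of all annotated transcripts of a gene and is not the length of the transcripts present. The levels, spans and order below therefore depend on the annotation. All exon bases were counted in the length, also those that Kif20a (1271 of 4338) and Kif4 (832 of 5514) share with a gene on the opposite strand. The places of Kif20a and Kif4 in the order are uncertain for that reason too. In Plek2+/+ progenitors Kif11 was highest at 42.8 ± 1.45 CPM per kilobase and Kif18a lowest at 5.07 ± 0.193 (SD, n = 2 each), an 8.46-fold span. Between them came Kif20a at 28.3, Kif20b at 21.96, Kif22 at 20.6, Kif4 at 19.9, Kif15 at 17.8, Kif23 at 15.3, Kif18b at 12.4 and Kif2c at 11.3 CPM per kilobase. Progenitors labelled Plek2-/- gave the same order except that Kif4 and Kif22 changed places, whose libraries overlapped. All other neighbours in the order were separate in both progenitor groups. In Plek2+/+ erythroblasts Kif11 was again highest, at 169 ± 24.6 CPM per kilobase, and Kif2c lowest, at 29.9 ± 2.10 (SD, n = 2 each), a 5.65-fold span. Kif4 followed Kif11 at 86.8, then came Kif20a at 78.2, Kif22 at 75.2, Kif18b at 58.2, Kif23 at 44.3, Kif20b at 39.0, Kif15 at 38.4 and Kif18a at 33.1 CPM per kilobase. Erythroblasts labelled Plek2-/- kept that order except for Kif20b, which stood just above Kif23 at 42.2 against 42.1. In the Plek2+/+ erythroblasts the libraries of Kif4 and Kif20a, Kif20a and Kif22, Kif20b and Kif15, Kif15 and Kif18a, and Kif18a and Kif2c overlapped. Within each library of that group, though, every such pair kept the order given, and no test was run on it. In those labelled Plek2-/- the libraries of Kif20b, Kif23 and Kif15 overlapped, and the other neighbours were separate. Within each library of that group Kif23 stood above Kif15, while Kif20b and Kif23 changed places between the libraries.

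The comparison of genotype labels asks whether the kinesins differ when Plek2 is lost in JAK2V617F/+ marrow. No difference was detected for any of the 10 in either population. In erythroblasts the log2 fold changes, labelled Plek2-/- over Plek2+/+, ran from -0.10 for Kif22 to 0.13 for Kif20b, and in progenitors from -0.01 for Kif20b to 0.11 for Kif18a. In erythroblasts 0 of 10 were called by edgeR, DESeq2 or limma-voom, where edgeR called 2.84% of 12241 tested genes (0.180% higher and 2.66% lower). At an unadjusted edgeR p below 0.05 the count was 0 of 10, against 14.7% of all tested genes. In progenitors the count was likewise 0 of 10 with each tool. There edgeR called 4.91% of 13168 genes (4.50% higher and 0.402% lower, or 4.00% and 1.01% with library totals). At an unadjusted edgeR p below 0.05 the count was 0 of 10 as well, against 17.3% of all tested genes.

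The 95% intervals bound what could have been missed. In erythroblasts they ran from -0.34 to 0.35 on the log2 scale over all 10 members, and in progenitors from -0.16 to 0.28. A change of log2 0.35 in either direction is therefore outside every interval, while some smaller ones lie inside them and were not detectable with 2 libraries a group. The median of the members was -0.04 in erythroblasts (all genes 0.01) and 0.02 in progenitors (all genes -0.01). For Kif20b, the member with the highest erythroblast value, the log2 fold change was 0.13 (SE 0.10, edgeR adjusted p = 0.625), and for Kif22, the lowest, -0.10 (SE 0.11, edgeR adjusted p = 0.741). Kif18a, highest in progenitors, gave 0.11 there (SE 0.07, edgeR adjusted p = 0.532). Kif23 gave -0.06 in erythroblasts and 0.02 in progenitors (edgeR adjusted p = 0.837 and 0.897). The libraries of the labels overlapped for all 10 members in erythroblasts, so 0 of 10 were separate, against 44.7% of all tested genes. In progenitors 5 of 10 were separate, Kif15, Kif18b, Kif20a, Kif20b and Kif4, against 51.8% of all genes, and none of them was called.

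**Figure D4:**
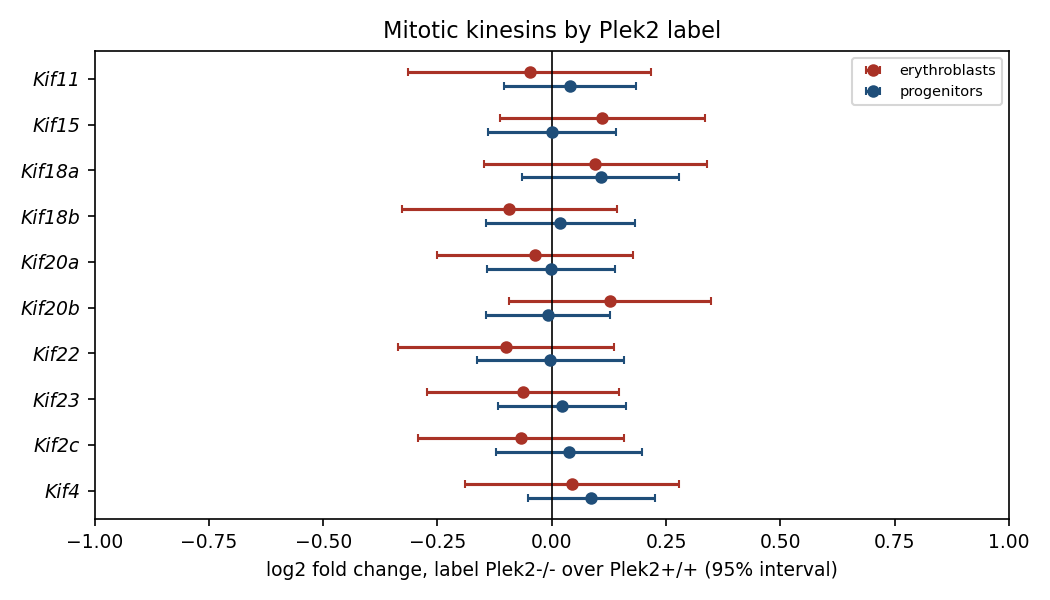
Log2 fold change of each kinesin, libraries labelled Plek2-/- over Plek2+/+, with 95% intervals from edgeR, in erythroblasts and in progenitors (4 libraries each). Every interval spans 0 and lies between -0.34 and 0.35.

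Kif4 lies on the X chromosome, and sex goes with the genotype label in these libraries. Its log2 fold change was 0.04 in erythroblasts and 0.09 in progenitors (edgeR adjusted p = 0.903 and 0.538). Markers of other blood cells moved with the label as well. The summed level of 18 neutrophil genes was 16130 to 17800 CPM in Plek2+/+ erythroblasts and 11070 to 12350 in those labelled Plek2-/-, with 12 of 18 called lower. It was 6684 to 10900 CPM in Plek2+/+ progenitors and 27220 to 35960 in those labelled Plek2-/-, with 17 of 18 called higher. Against progenitors, erythroblasts had 16 of 18 neutrophil genes called higher in the Plek2+/+ libraries and 17 of 18 called lower in those labelled Plek2-/-, while the kinesins were higher under both. Monocyte and macrophage markers moved with the population: 8 of 13 were called higher and 5 lower in erythroblasts under either label, with medians of 1.34 and 1.47. Of the 8, C1qa was at 139 and 129 CPM in Plek2+/+ erythroblasts and 2.30 and 2.63 CPM in Plek2+/+ progenitors. Of the 5, F13a1 was at 189 and 192 CPM in Plek2+/+ erythroblasts and 858 and 995 CPM in Plek2+/+ progenitors. On unscaled library totals the summed level of the 13 markers was lower in erythroblasts. It was 1322 to 1446 CPM in Plek2+/+ erythroblasts and 1189 to 1498 in those labelled Plek2-/-. In progenitors it was 2487 to 2838 CPM in Plek2+/+ and 2016 to 2297 in those labelled Plek2-/-. The calls and medians use TMM scaling instead, so the sums cannot be set beside them. Of 10 megakaryocyte markers, 6 were called higher and 1 lower in Plek2+/+ erythroblasts, and 4 higher and 2 lower in those labelled Plek2-/-. Their sums, again on unscaled library totals and so on another scale than these calls, lay between 190.4 and 282 CPM in all 4 groups.

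Other lists also differed by label within erythroblasts. Of the B cell markers 7 of 14 were called lower in those labelled Plek2-/- (summed level 80.7 to 114 CPM, against 164 to 203 in Plek2+/+), of the granulocyte precursor markers 4 of 9 (628 to 652 against 825 to 909 CPM), of the mast cell, basophil and eosinophil markers 4 of 10 (939 to 1254 against 1861 to 2089 CPM) and of the T and NK cell markers 1 of 8 (28.4 to 31.1 against 39.0 to 39.2 CPM). In progenitors 3 of 9 granulocyte precursor markers and 1 of 10 megakaryocyte markers were called higher, and 1 of 13 monocyte and macrophage markers and 1 of 10 mast cell, basophil and eosinophil markers lower. No marker of these lists was at 0 throughout a group, and the part of any of these cells in the kinesin values was not tested.

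The difference between the genotype effects of the 2 populations was tested as an interaction in 1 fit of all 8 libraries. It was called for 0 of 10 kinesins by edgeR, DESeq2 and limma-voom. Over all 13365 tested genes edgeR called 5.55% (0.232% higher and 5.32% lower). An unadjusted edgeR p below 0.05 was found for 0 of 10 kinesins and for 18.2% of all genes. The members' values ran from -0.08 for Kif18b to 0.17 for Kif20b, with 95% intervals between -0.38 and 0.43. Kif20b, the extreme member, gave 0.17 (SE 0.12, edgeR adjusted p = 0.512).

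Of the other mitotic kinesins, all 5 that could be tested were higher in erythroblasts under both labels. Cenpe, the kinetochore motor that brings chromosomes to the equator, was at 225 and 217 CPM in Plek2+/+ progenitors and 866 and 955 CPM in Plek2+/+ erythroblasts (log2 fold change 2.04, 4.12-fold, edgeR adjusted p = 1.63e-09). The cytokinesis motor Kif14 rose 3.92-fold in the Plek2+/+ libraries, the minus-end motor Kifc1 4.05-fold, its close copy Kifc5b 3.75-fold, and the depolymerase Kif2a 2.61-fold. In the libraries labelled Plek2-/- the folds were 4.58 for Cenpe, 4.18 for Kif14, 4.03 for Kifc1, 3.47 for Kifc5b and 2.95 for Kif2a. Kifc1 and Kifc5b are near-identical, so reads may be split between them and each value is uncertain. Kif2b had 0 reads in all 8 libraries, which allows a level of up to 0.128 to 0.187 CPM of the library total (3 counts), for counting error only. All 5 stayed called higher with library totals alone. None of the 5 was called by edgeR in either genotype comparison. At an unadjusted edgeR p below 0.05 the count was 0 as well, against 14.7% of all tested genes in erythroblasts and 17.3% in progenitors.

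The other kinesins and kinesin light chains, many of which serve the transport of cargo, did not share this pattern. Of 26 tested, 5 were called higher and 14 lower in Plek2+/+ erythroblasts, and 3 higher and 14 lower in those labelled Plek2-/-, with medians of -0.73 and -0.92. With library totals alone 0 were called higher and 23 lower, and 1 higher and 22 lower. Kif13a, a motor of endosomes, was at 99.3 and 104 CPM in Plek2+/+ progenitors and 35.9 and 34.3 CPM in Plek2+/+ erythroblasts (log2 fold change -1.53, 2.89-fold lower, edgeR adjusted p = 1.68e-09). Kifap3, the adaptor of the kinesin-2 motor, was lower as well (log2 fold change -1.83, edgeR adjusted p = 9.58e-08). Kif21b fell by 2.06 on the log2 scale in the libraries labelled Plek2-/- (edgeR adjusted p = 3.43e-08).

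Of the genes for proteins that work with the kinesins at the spindle and midzone, 27 of 28 were called higher and 1 lower under either label, with medians of 1.62 and 1.63. With library totals alone the count was 25 higher and 1 lower under either label. Birc5 (survivin), which holds Aurora B at centromeres and midzone, was at 69.3 and 67.8 CPM in Plek2+/+ progenitors and 393 and 428 CPM in Plek2+/+ erythroblasts (5.99-fold, edgeR adjusted p = 9.50e-12). Nusap1, which bundles spindle microtubules, rose 6.92-fold there. The exception was Cep55, which recruits the abscission machinery to the midbody. It was at 37.8 and 39.2 CPM in Plek2+/+ progenitors, 39.1 and 39.3 CPM in progenitors labelled Plek2-/-, 15.5 and 14.6 CPM in Plek2+/+ erythroblasts, and 11.6 and 9.99 CPM in erythroblasts labelled Plek2-/-. Cep55 thus fell by 1.35 on the log2 scale in the Plek2+/+ libraries and fell by 1.86 in those labelled Plek2-/- (edgeR adjusted p = 7.95e-08 and 5.12e-09).

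Genes of mitotic entry and exit gave 26 of 28 called higher and 1 lower in the Plek2+/+ libraries, and 27 higher and 0 lower in those labelled Plek2-/-, with medians of 2.13 and 2.15 (26 higher and 2 lower, and 26 higher and 1 lower, with library totals). The phosphatase gene Cdc25b, which activates Cdk1, went from 54.2 and 48.5 CPM in Plek2+/+ progenitors to 799 and 913 CPM in Plek2+/+ erythroblasts (16.7-fold, edgeR adjusted p = 6.92e-12), and Fzr1, an activator of the anaphase-promoting complex, rose 9.14-fold. The kinase gene Wee1, which restrains Cdk1, was the gene called lower (log2 fold change -0.24, edgeR adjusted p = 0.0330), and it was not called with DESeq2 or with median-of-ratios size factors. Pkmyt1, a kinase with the same target, was called in the libraries labelled Plek2-/- but not in the Plek2+/+ libraries (log2 fold change 0.23, edgeR adjusted p = 0.136). With library totals alone Pkmyt1 was instead called lower in the Plek2+/+ libraries (-0.58, edgeR adjusted p = 0.00209) and was not called in those labelled Plek2-/- (-0.24, edgeR adjusted p = 0.134).

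Of the regulators of G2 and M transcription, which include the MuvB, Myb, Foxm1, E2F and NF-Y genes, 16 of 20 were called higher and 1 lower under either label, with medians of 0.90 and 1.15. With library totals alone the counts were 9 higher and 5 lower in the Plek2+/+ libraries and 13 higher and 4 lower in those labelled Plek2-/-. E2f2 rose 14.2-fold and the retinoblastoma gene Rb1 6.63-fold in the Plek2+/+ libraries (edgeR adjusted p = 5.73e-11 and 1.53e-10). Rbl2 (p130), the pocket protein of resting cells, was lower (log2 fold change -0.70 and -0.65). Genes of S phase were called higher in 31 of 32 cases in the Plek2+/+ libraries and 32 of 32 in those labelled Plek2-/-, with medians of 1.42 and 1.59 (26 higher and 2 lower, and 29 higher and 0 lower, with library totals). Ccne1, cyclin E1, rose 5.69-fold and Orc1, an origin-binding protein, 6.75-fold in the Plek2+/+ libraries. The S phase gene that was not called there was the licensing factor Cdt1 (log2 fold change 0.20, edgeR adjusted p = 0.119), and with library totals alone it was called lower, at -0.61.

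**Figure D5:**
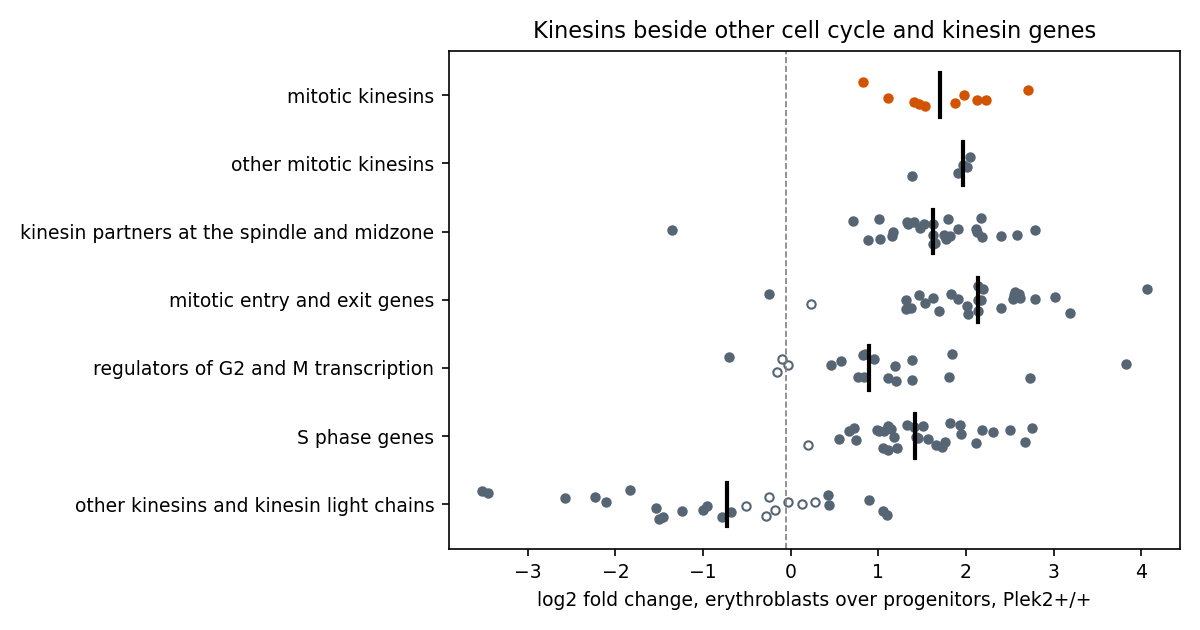
Log2 fold change, erythroblasts over progenitors in the Plek2+/+ libraries, for each tested gene of 7 lists; filled points passed the edgeR test, open points did not, black bars are medians and the dashed line is the median of all tested genes (-0.06). The kinesin list has 10 filled points from 0.83 to 2.71, and the other kinesins and kinesin light chains lie mostly to the left.

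In both genotype comparisons and with each of these lists of other cell cycle and kinesin genes, edgeR called 0 genes. Leaving out either library of the progenitors labelled Plek2-/- changed this, as it changed the number of calls among all tested genes. Such a fit leaves 1 library in that group. For the most abundant gene of 3 lists the log2 fold change in erythroblasts was -0.02 for Ckap5, a microtubule polymerase, 0.14 for Mki67, a coat protein of mitotic chromosomes, and 0.13 for Rrm1, a subunit of ribonucleotide reductase (edgeR adjusted p = 0.961, 0.744 and 0.655). In progenitors the values were 0.04, 0.07 and -0.10 (edgeR adjusted p = 0.781, 0.727 and 0.508). For the cargo motor Kif5b the log2 fold change was 0.016 in erythroblasts and 0.10 in progenitors (edgeR adjusted p = 0.964 and 0.458). For the transcription factor gene E2f2 it was 0.04 in erythroblasts and 0.32 in progenitors (edgeR adjusted p = 0.916 and 0.210), and the latter was called with 2 of 11 alternatives, such as no filter on low counts (0.32, edgeR adjusted p = 0.00249). At an unadjusted edgeR p below 0.05 the counts were 0 to 5 per list in either population. Over all tested genes that share was 14.7% in erythroblasts and 17.3% in progenitors. DESeq2 and limma-voom each called 1 gene in erythroblasts, the cargo kinesin Kif21b (lower), and 0 in progenitors. The genotype interaction of the 32 S phase genes was positive for all 32, with a median of 0.23 (all genes 0.04, kinesins -0.03). It had an unadjusted edgeR p below 0.05 for 10 of the 32, against 18.2% of all tested genes. Of the 32, 0 were called by edgeR and 1 each by DESeq2 and limma-voom.

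The genes whose pattern over the 8 libraries was most like the mean pattern of the kinesins were found among 10176 other genes, by the root mean square difference of centred log2 CPM. The 8 nearest were Ect2 (0.023), Ndc80 (0.025), Mzt1 (0.034), Ncaph (0.037), Mesdc1 (0.040), 1700020I14Rik (0.041), Tubb4b (0.041) and Ap2a2 (0.042). Ect2, an exchange factor for RhoA, was at 122 and 126 CPM in Plek2+/+ progenitors, 122 and 120.4 in progenitors labelled Plek2-/-, 378 and 456 in Plek2+/+ erythroblasts, and 386 and 426 in erythroblasts labelled Plek2-/-. Ndc80, a microtubule anchor of the kinetochore, was at 45.1 and 45.2 CPM in Plek2+/+ progenitors and 145 and 164 CPM in Plek2+/+ erythroblasts. By the same measure the kinesins themselves lay from 0.074 (Kif22) to 0.50 (Kif18a) from their own mean, so every member was farther from it than these 8 genes. The 8 were picked as the nearest of 10176, so this order is a description only.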

How the data were processed

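The deposited table of counts holds whole reads per gene for 8 libraries. Per the submitters' processing notes the tools were cutadapt 1.13, STAR 2.5.2a, HTSeq 0.6.1pl and DESeq2 1.14.1 with build mm10, while annotation and strand setting are not given here by any source used. A second deposited table holds normalized signal: in each library its values were checked to be the counts over a single size factor, and it served only to read those factors. Replicates differed by more than counting noise (chi-square over its degrees of freedom 5.92 to 16.5). Intervals and limits from counts cover counting error only.

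Tests used edgeR 4.0.16 (R 4.3.3): TMM scaling, filterByExpr, quasi-likelihood fits, Benjamini-Hochberg adjustment over all tested genes, called below 0.05. Genotype was fitted in each population's 4 libraries, and the population contrasts and interaction in 1 fit of 8 libraries and 4 groups. DESeq2 1.42.0, limma-voom (limma 3.58.1), other scaling, no filter, a replicate block and leaving out libraries were alternatives. The code was tested on simulated counts. Shares were tested with SciPy 1.17.1. Lengths and positions are from GENCODE vM21, promoters from RefSeq.

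The members and lists were chosen with earlier results of these data known. Beside the members and the other mitotic kinesins, each list is named by its 2 called genes of lowest adjusted p, or its most abundant where none was called, and the 8 genes of nearest pattern are named among those with a mean count of at least 100. Exceptions to a list's direction (Cep55, Wee1, Pkmyt1, Rbl2 and Cdt1), the overlapping genes Cdc23 and Pdzd11, and the pseudogene were chosen after their values were seen. So were the markers C1qa and F13a1. The numbers of the replicates were not taken to pair libraries.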

Additional observations from a re-analysis of the deposited data

Results flagged for a closer look

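Plek2 itself moved differently in the 2 populations: its genotype effect was lower in erythroblasts than in progenitors, by a difference of -3.66 on the log2 scale (edgeR adjusted p = 6.34e-05), from -1.21 in erythroblasts and 2.47 in progenitors. Whether the progenitor labels were exchanged cannot be told from the files.

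Kif21b, a kinesin outside mitosis, was the only gene of the kinesin and cell cycle lists whose genotype effect was called different between the populations, at -0.82 on the log2 scale (SE 0.20, edgeR adjusted p = 0.0308). It was at 143 and 135 CPM in Plek2+/+ progenitors, 145 and 185 CPM in progenitors labelled Plek2-/-, 61.6 and 56.0 CPM in Plek2+/+ erythroblasts, and 46.6 and 32.7 CPM in erythroblasts labelled Plek2-/-. Neither effect was called by itself with edgeR (-0.57, adjusted p = 0.0511, in erythroblasts; 0.29, adjusted p = 0.217, in progenitors). The difference ran from -1.13 to -0.64 over the alternatives, with an adjusted p of up to 0.111. It was not called without replicate 1 (0.0870) or replicate 2 (0.0543) of the Plek2+/+ erythroblasts, without replicate 1 (0.0602) or replicate 2 (0.111) of the Plek2+/+ progenitors, or without replicate 2 (0.0993) of the progenitors labelled Plek2-/- (edgeR adjusted p in each case).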

How the results depend on the processing

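None of the 10 mitotic kinesins was called for genotype or interaction under any alternative (edgeR, DESeq2 or limma-voom adjusted p of at least 0.388 for erythroblasts, 0.153 for progenitors and 0.327 for interaction), though uncalled values changed sign in 9 of 110, 18 of 110 and 18 of 140 cases. All 10 stayed called higher in erythroblasts under both labels, except Kif20b with library totals in the Plek2+/+ libraries (0.01). Library totals alone gave member medians of 0.88 (Plek2+/+) and 0.85 (labelled Plek2-/-) between populations and -0.039 for genotype in progenitors, where the 8-library fit gave -0.021. They turned the sign of 4 genes that are no members, all called lower in Plek2+/+: Cdt1 (-0.61), Pkmyt1 (-0.58), Kif5b (-0.38) and Cdc23 (-0.20). In labelled Plek2-/- Kif5b (-0.40) was called lower, and Cdt1 (-0.045, edgeR adjusted p = 0.722), Pkmyt1 (-0.24, 0.134) and Cdc23 (-0.023, 0.790) were not called. Kif21b was called for genotype in erythroblasts with 6 of 11 alternatives (as with DESeq2, -0.56) and Cep55 (-0.48) in the 8-library fit. Of the genes named here, edgeR with no filter also called Cdt1 in erythroblasts (0.34, adjusted p = 0.0291) and for interaction (0.52, 0.00426), and Kif21b (0.29, 0.00527) and E2f2 (0.32, 0.00249) in progenitors. Genes called for genotype in erythroblasts numbered 348, but 230 with library totals and 845 with no filter. In progenitors they numbered 646, but 1315 with no filter. Interaction calls numbered 742, but 1215 with no filter.

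With the replicate number as a block, 579 genes were called in erythroblasts and 813 in progenitors. Deviations of same-numbered libraries correlated at 0.113 in erythroblasts and -0.114 in progenitors, and those of the other group pairs at -0.0485 to 0.17, so the numbers were not taken as pairs. The crossed pairing, added after the data were seen, called 1327 genes in progenitors and 0 members.

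Leaving out 1 library gave 25 to 995 genotype calls in erythroblasts (34 and 25 without replicate 1 or 2 of Plek2+/+, 995 and 119 without replicate 1 or 2 of labelled Plek2-/-). In progenitors it gave 239 to 2649 (239 without replicate 2 of Plek2+/+, 2649 and 1739 without replicate 1 or 2 of labelled Plek2-/-). The interaction gave 401 to 1175 (401 without replicate 2 of Plek2+/+ progenitors, 1175 without replicate 1 of erythroblasts labelled Plek2-/-). Population calls ran from 8630 to 10051 in Plek2+/+ and 9336 to 10259 in labelled Plek2-/-. Member medians ran from -0.13 to 0.069 and 0.018 to 0.030 for genotype, -0.19 to 0.065 for the interaction, and 1.64 to 1.87 and 1.57 to 1.73 between populations. A lone library was assumed to vary like the other groups. Intervals for genotype reach log2 0.35, so smaller changes may have been missed with 2 libraries a group.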
